A study of Mus musculus with 39 samples.

Results

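The miR-378 family of mouse heart consists of the 2 arms of the miR-378a hairpin, which lies in an intron of Ppargc1b, the gene of the transcriptional coactivator PGC-1β, and of 3 related microRNAs from other chromosomes, miR-378b, miR-378c and miR-378d. Its members were taken as every row whose deposited name contains the miR-378 gene name, together with every row placed at the Mir378a locus on either strand. This gave 9 of the 1684 rows in the count files, 9 in the male files and 7 in the female files. The files held 39 small RNA libraries from hearts of wild-type mice of the inbred strain FVB/NJ, 16 from females and 23 from males. Among the females, 6 hearts were of 6 weeks, 3 of 7 weeks, 2 of 8 weeks and 5 of 9 weeks. Among the males, 2 hearts were of 4 weeks, 3 of 5 weeks, 12 of 6 weeks, 1 of 7 weeks, 4 of 8 weeks and 1 of 16 weeks. The labels name no treatment or transgene, give the tissue as whole heart and the sampled piece as the ventricular apex, and do not say whether separate animals stand behind the libraries. The p-values then cover only sample-to-sample spread, which may be technical.

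A microRNA is cut as a short duplex from a hairpin precursor, and 1 or both strands of the duplex, called the 5p and the 3p arm, are kept to guide the repression of messenger RNAs, mainly through the seed, bases 2 to 8 of the mature RNA. Ppargc1b and its relative Ppargc1a drive mitochondrial genes, and both arms of miR-378a are made from the Ppargc1b transcript. In mice, miR-378a-3p is known to repress the carnitine acetyltransferase Crat and miR-378a-5p the Mediator subunit Med13, 2 regulators of fatty acid use, and loss of the locus raises energy expenditure. In rodent heart muscle miR-378a-3p is also known to repress growth signalling genes such as Igf1r and Grb2, while the roles of miR-378b, miR-378c and miR-378d are less well described. A bulk library holds RNA of all cells of the piece sampled, so that fewer cells of a type and less RNA per cell cannot be told apart.

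The mature sequences of the 3 single-arm members, from RefSeq (GRCm38.p6), are given 5′ to 3′ with the seed in capitals, because their likeness bears on how reads can be assigned to them.
miR-378b: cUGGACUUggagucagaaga
miR-378c: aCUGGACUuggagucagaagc
miR-378d: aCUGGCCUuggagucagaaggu
Deposited and RefSeq coordinates were equal for these 3. With positions counted from 1 at the 5′ end of miR-378c, miR-378c and miR-378d differ by A6C and C21G and are identical at 19 of 21 bases, and A6C lies inside the seed. miR-378b starts 1 base later than miR-378c, so that its seed is displaced by 1 base, and differs from it by C21A, with 19 of 20 bases identical. The mature RNA lies at bases 67 to 86 of the 92-base hairpin of miR-378b, near its 3′ end, but at bases 4 to 24 of 99 in miR-378c and 16 to 37 of 110 in miR-378d, near the 5′ end. Reads of such near-identical members could be split between rows by the counting, which is not given in the sources used here, so values of single members are less certain than their sum. The sequence of miR-378a-3p was not in the reference used, so its likeness to these 3 was not compared. Whether its reads were counted in their rows was not tested, which also limits ratios of these members to miR-378a-3p.

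The deposited name of the most abundant member was not a miR-378 name. The row called Gm25301-5p_antisense sits at chr18:61397837-61397858 (GRCm38, minus strand), where the annotation has the 3p arm of Mir378a within an intron of Ppargc1b, and it is called miR-378a-3p here. Likewise, Gm25301-3p_antisense at chr18:61397875-61397896 is miR-378a-5p. Gm25301 is a predicted microRNA gene annotated on the plus strand over the same bases, and its 2 sense rows are the only ones that carry its name in their own direction. miR-378b lies at chr11:88352839-88352858 on the plus strand, opposite to the direction of Msi2, whose intron holds it. miR-378c lies at chr14:46954905-46954925 on the minus strand, again opposite to the gene around it, Samd4. miR-378d lies at chr10:126710355-126710376 on the minus strand between genes, and the nearest protein-coding gene, Atp23, is 158051 bp away. Of the members, only miR-378a is therefore read in the direction of a host gene.

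Libraries held 1788245 to 14563754 counts (median 8410768), so that a count of 0 allows up to 3 counts, or 0.206 to 1.68 CPM by library, CPM being the usual scaling of counts to equal library totals. Heart muscle markers were present throughout. The muscle microRNA miR-133a-2-3p averaged 75932 CPM and miR-133a-1-3p 9657 CPM, while the skeletal muscle marker miR-206-3p did not pass 0.0849 CPM in any library. The most abundant arms of the other marker lists were miR-3107-5p (58906 CPM) and miR-486-5p (53832 CPM) for red blood cells, miR-143-3p (135011 CPM) and miR-145a-3p (822 CPM) for smooth muscle, and miR-126a-5p (33537 CPM) and miR-126a-3p (7902 CPM) for endothelium. miR-142a-5p (1613 CPM) and miR-150-5p (846 CPM) led for white blood cells, miR-192-5p (1732 CPM) and miR-203-3p (131 CPM) for liver and epithelium, and miR-193b-3p (45.4 CPM) and miR-365-3p of Mir365-2 (17.0 CPM) for brown fat, a tissue also known for high miR-378a. The labels give no batch. From the split of counts between 13 pairs of rows with identical mature sequence, none of them a family member, the libraries were clustered into 7 sets with a like split. They are called library sets here and follow sex and age only in part. The number of sets was fixed by choice and is not a result. Whether the sets reflect technical handling was not tested.

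miR-378a-3p was among the leading microRNAs of every heart. It took 5.16% ± 6.82 of counts (SD, n = 39), or 4.07% ± 0.842 without replicate 2 of the female 7-week group (n = 38), in which it took 46.4% (95% Wilson interval 46.3% to 46.4%). Its rank within a library ran from 1 to 11, and it was first only in that library. In female hearts it averaged 38556 ± 5215 CPM at 6 weeks (35598 to 49126, n = 6) and 31534 ± 1371 CPM at 9 weeks (30255 to 33585, n = 5). The 3 female hearts of 7 weeks had 46184, 463583 and 46590 CPM and the 2 of 8 weeks 45350 and 34907 CPM. In male hearts it had 31703 and 30842 CPM at 4 weeks, 40537, 40881 and 31688 CPM at 5 weeks, and averaged 43777 ± 10117 CPM at 6 weeks (30205 to 62364, n = 12). The male heart of 7 weeks had 49646 CPM, the 4 of 8 weeks 45870, 46778, 53878 and 49933 CPM, and the heart of 16 weeks 37746 CPM.

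**Figure D1:**
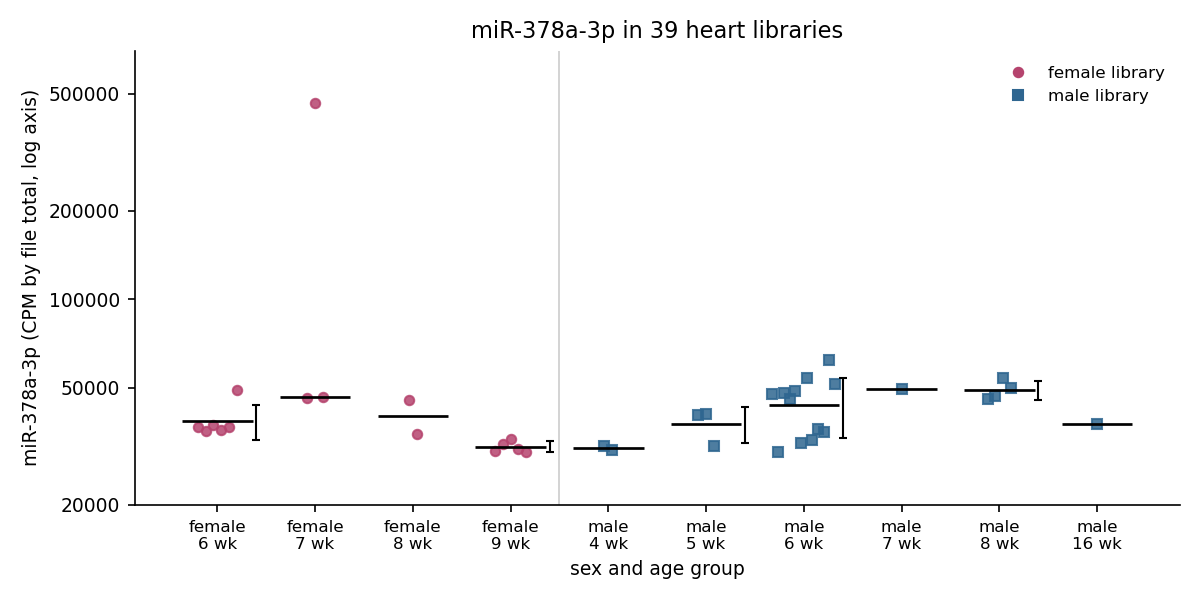
miR-378a-3p in CPM by file total (log axis) for each library, by sex and age group, with the group mean (line) and SD (bar, groups with 3 or more libraries), both without replicate 2 of the female 7-week group. That library sits at 463583 CPM, and the other 38 lie between 30205 and 62364 CPM.

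Ordered by mean and without that library, the groups ran from male 4 weeks (31272 CPM) and female 9 weeks (31534 CPM) over male 5 weeks, male 16 weeks, female 6 weeks, female 8 weeks and male 6 weeks to female 7 weeks (46387 CPM), male 8 weeks (49115 CPM) and male 7 weeks (49646 CPM). Every neighbouring pair in this order overlapped. Set against the library composition by scaling factors (TMM), the 38 libraries spread little around their mean. The coefficient of variation was 13.2%, the 5th lowest of 235 microRNA arms with a mean of at least 20 CPM, whose median was 31.2%. miR-378d had 17.6% (24th lowest), miR-378b 29.4%, miR-378c 53.8% (188th) and miR-378a-5p 55.0% (191st). At 6 weeks alone, where sex is the only labelled difference, miR-378a-3p had 13.1% (55th lowest of 231 arms, median 21.2%, n = 18) and miR-378a-5p 10.7% (29th). miR-378c had 34.4% there (179th). The place of miR-378a-5p over all ages rested on replicate 2 of the female 8-week group, which had 1540 TMM-scaled CPM, against 217 to 610 in the other 37 libraries. Without it miR-378a-5p had 20.9% (82nd of 233 arms, median 24.8%), miR-378a-3p 11.3% (5th) and miR-378c 49.8% (198th).

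The 5p arm was the minor product of the hairpin in every library. miR-378a-3p made up 97.0% to 99.2% of all family counts, and miR-378a-5p had 0.558% to 2.70% of the counts of miR-378a-3p, with a median of 0.850%. As both counts come from the same library, this ratio does not depend on how libraries are scaled. Female hearts of 9 weeks had the lowest group mean, 0.647% ± 0.056 (0.558% to 0.704%, n = 5), against 0.992% ± 0.220 in female hearts of 6 weeks (0.677% to 1.33%, n = 6). Male hearts had 0.876% and 1.28% at 4 weeks, 0.706% ± 0.098 at 5 weeks (n = 3), 0.899% ± 0.155 at 6 weeks (n = 12) and 0.896% ± 0.060 at 8 weeks (n = 4).

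**Figure D2:**
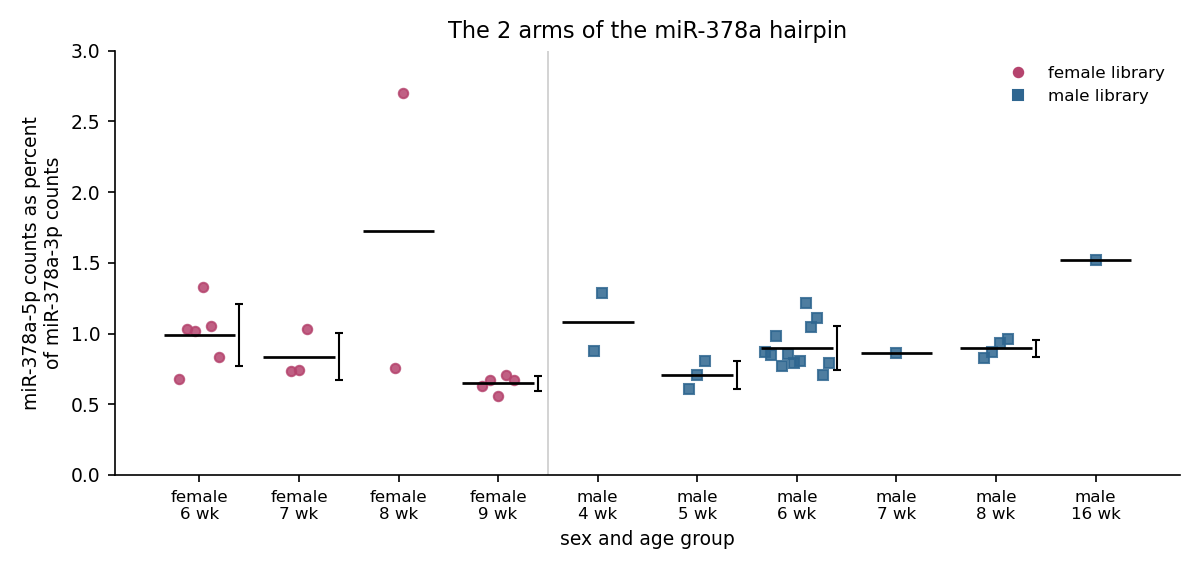
Counts of miR-378a-5p as a percent of those of miR-378a-3p for each library, by sex and age group, with the group mean (line) and SD (bar, groups with 3 or more libraries). Replicate 2 of the female 8-week group (2.70%) and the male 16-week heart (1.52%) stand above the other 37 libraries, and the 5 female hearts of 9 weeks lie between 0.558% and 0.704%.

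Libraries with the highest ratios differed in their marker levels. Replicate 2 of the female 8-week group had 2.70%, against 0.757% in replicate 1, and its red blood cell marker list summed to 404961 CPM, the highest of the 39 libraries, which had a median of 97985 CPM. It was also the shallowest library, its heart muscle (161304 CPM) and brown fat (218 CPM) markers were the highest of all, and its smooth muscle (25910 CPM), endothelial (11430 CPM) and liver and epithelium (539 CPM) markers the lowest. The male 16-week heart had 1.52% with 249782 CPM of those markers. Replicate 4 of the female 6-week group came next with 1.33%, at 78220 CPM of red blood cell markers, below the median, and the female hearts of 9 weeks, with the lowest ratios, summed to between 163675 and 209320 CPM. The part of these markers in the ratio was not tested. In absolute level, miR-378a-5p had 204 ± 13.8 CPM in female hearts of 9 weeks (187 to 218, n = 5), below every library of all other groups in CPM by file total, and its next neighbour in order, male hearts of 5 weeks, had 263 ± 23.0 CPM (246 to 289, n = 3). After TMM scaling the female hearts of 9 weeks had 217 to 270 CPM and overlapped the male hearts of 5 weeks, with 258 to 284 CPM. The 5 female hearts of 9 weeks made up library set 7 by themselves. The share of all arms that lay below all other groups in these hearts was not counted.

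The 3 other loci were far less abundant and differed in how they varied. Without replicate 2 of the female 7-week group, miR-378d averaged 72.5 ± 20.1 CPM (44.9 to 115), miR-378c 42.8 ± 24.4 CPM (12.9 to 119) and miR-378b 12.4 ± 4.38 CPM (4.53 to 25.5; SD, n = 38 each). Set against miR-378a-3p in the same library, miR-378d was the steadiest, with 17.7 ± 2.37 counts per 10000 counts of miR-378a-3p (13.9 to 23.1). miR-378b had 3.04 ± 0.933 (1.43 to 5.56) and miR-378c 10.4 ± 4.81 (4.08 to 22.1).

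The level of miR-378c relative to miR-378a-3p differed most between some library sets. It had 6.01 ± 1.31 counts per 10000 of miR-378a-3p in set 1 (4.08 to 7.25, n = 6), 5.86 ± 0.378 in set 3 (5.22 to 6.49, n = 8), 9.77 ± 1.07 in set 4 (8.24 to 11.6, n = 6) and 20.2 ± 1.43 in set 6 (18.7 to 22.1, n = 5). Sets 2 (10.7 to 17.7, n = 5), 5 (9.28 to 13.1, n = 4) and 7 (9.79 to 11.3, n = 5) overlapped each other and set 4, and sets 1 and 3 overlapped too, while set 6 stood above all others. Sets 3 and 4 both held female and male hearts of 6 weeks, and their ranges did not overlap, so that hearts of 1 age and both sexes stood apart by library set. The sets were built from these same libraries, and the share of all arms that also stood apart between sets was not counted. Of the variance of log2 of this ratio over 38 libraries, 91.9% lay between library sets and 65.0% between groups of sex and age. For miR-378b these shares were 67.3% and 33.5%, for miR-378d 58.1% and 39.8%, and for the ratio of the 2 arms of miR-378a 51.4% and 49.1%. Sets and groups overlap in part and the sets are no labelled batch, so these shares are a description.

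**Figure D3:**
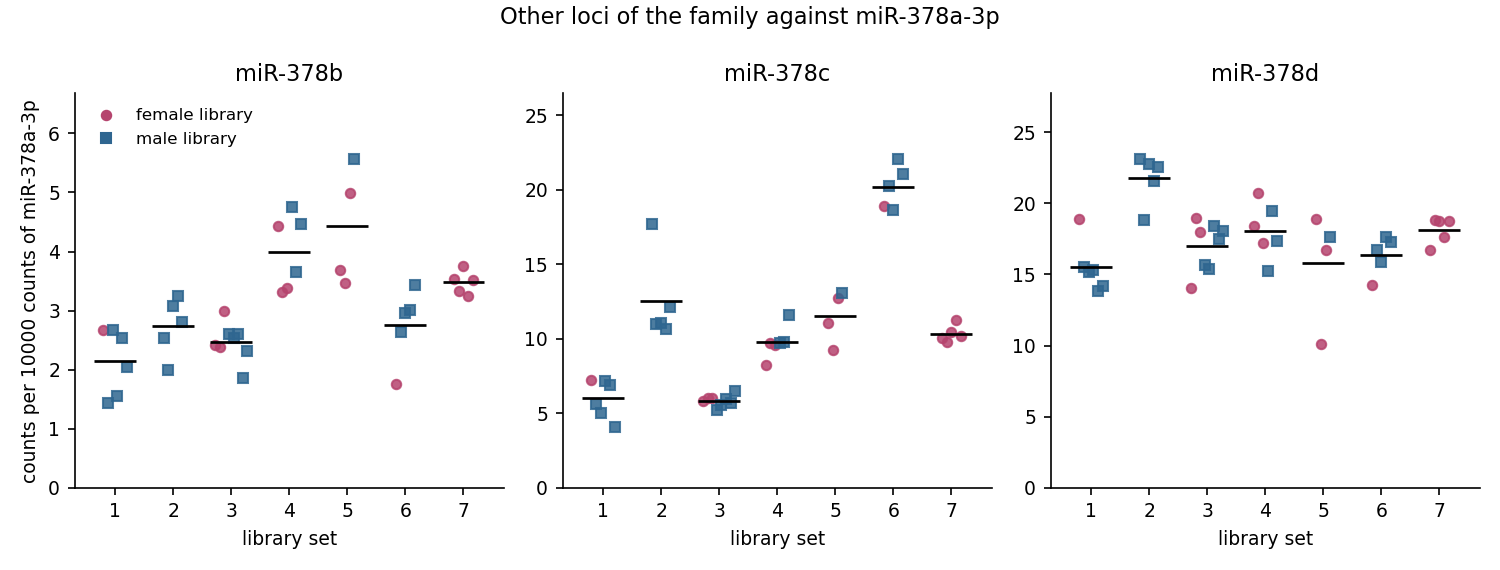
Counts of miR-378b, miR-378c and miR-378d per 10000 counts of miR-378a-3p in each of the 39 libraries, by library set, with the set mean (line). miR-378c lies between 5.22 and 6.49 in set 3 and between 18.7 and 22.1 in set 6, while the lowest miR-378d value, 10.1 in set 5, is replicate 2 of the female 7-week group.

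The 4 remaining rows of the family were nearly empty. Gm25301-5p in its own direction held 32 counts in 10 libraries and Gm25301-3p 12 counts in 6 libraries, against 16289414 and 137754 counts of miR-378a-3p and miR-378a-5p on the other strand. The row opposite to miR-378c held 1 count (male 8 weeks, replicate 3), and the row opposite to the 5p side of miR-378b 1 count (male 8 weeks, replicate 1). None passed the filter on low counts in the main fits, each of which tested 5 of the 9 rows.

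In replicate 2 of the female 7-week group all 5 tested members stood far above the other hearts, including those on other chromosomes. miR-378a-3p had 463583 CPM there, against 45350 to 46184 CPM in the other 3 libraries of its library set. Since the family itself took 46.8% of counts, levels were also scaled to the counts outside the family alone. On that scale miR-378a-3p and miR-378a-5p were both 18.1 times the median of those 3 libraries, miR-378c 13.4 times, miR-378b 12.7 times and miR-378d 10.4 times. The 2 arms kept their ratio, 0.745%, within the range of the other hearts, whereas miR-378d had 10.1 counts per 10000 of miR-378a-3p in this library, against 13.9 to 23.1 in the other 38. In counts, the library held 3350148 of miR-378a-3p, 1160 of miR-378b, 3108 of miR-378c and 3380 of miR-378d. Whether reads of miR-378a-3p were counted in the rows of the other loci was not tested. A rise of those loci themselves cannot be told apart from such counting.

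Most of the rest of that library was close to its neighbours. Over 233 arms outside the family the median ratio to the other 3 libraries of the set was 1.04 (quartiles 0.940 and 1.15), with 3 arms over 2-fold higher and 6 over 2-fold lower. The most raised of these, the row AC121538.1-5p_sense, singled out after its value was seen, was 10.7 times the median of those libraries. On the scale outside the family, heart muscle markers summed to 105956 CPM, against 101862 to 110905 CPM in the other 3 libraries, and smooth muscle markers to 90109 CPM, against 84889 to 99197 CPM. Endothelial markers summed to 50964 CPM, against 48343 to 53929 CPM. Brown fat markers summed to 121 CPM, against 101 to 114 CPM, and red blood cell markers to 91112 CPM, against 76964 to 79813 CPM. White blood cell markers summed to 3548 CPM, against 2988 to 3384 CPM, and liver and epithelium markers to 2005 CPM, against 1703 to 1967 CPM. These last 4 lists lay above the range of the other 3 libraries, and their part in the high family level was not tested. The library took part in the female age slope and in the comparison of slopes between the sexes, which are given with and without it.

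At 6 weeks the sexes did not differ detectably in any member. miR-378a-3p had 35598 to 49126 CPM in 6 female hearts (median 36747) and 30205 to 62364 CPM in 12 male hearts, and the ranges overlapped. edgeR's quasi-likelihood test gave log2 differences, female minus male, of -0.10 ± 0.11 for miR-378a-3p (SE, adjusted p = 0.601, 95% interval -0.33 to 0.12), 0.03 ± 0.08 for miR-378a-5p (adjusted p = 0.851), -0.05 ± 0.15 for miR-378b (adjusted p = 0.864) and -0.19 ± 0.13 for miR-378d (adjusted p = 0.478). The largest was that of miR-378c, which had 21.5 to 35.2 CPM in female hearts (median 30.2) and 17.0 to 84.2 CPM in male hearts (median 36.3), a log2 difference of -0.41 ± 0.20 (edgeR adjusted p = 0.478, 95% interval -0.84 to 0.02). None of the 5 tested members was called, and neither was any of the 339 arms tested (0.0%), of which 25 had an unadjusted p under 0.05 in edgeR and 31 in DESeq2, with no call in DESeq2 either.

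With library set as a term, the sex difference of miR-378c came closer to 0 (-0.05 ± 0.12), as did that of miR-378a-3p (0.01 ± 0.07). Within set 3 miR-378c differed by 0.05, and within set 4 by -0.14. The whole family took 3.90% ± 0.524 of counts in female hearts (n = 6) and 4.43% ± 1.02 in male hearts (n = 12), a difference of -0.526 percentage points (two-sided exact permutation test over 18564 regroupings, p = 0.240). Regrouped within the sets that held both sexes, it was -0.187 points (exact permutation test, 300 regroupings, p = 0.740). These sets went in opposite directions, with 4.34% in female and 5.07% in male hearts of set 3 and 3.72% and 3.54% in those of set 4. Replicates 2 and 6 of the male and replicate 1 of the female 6-week groups gave over 40% of their counts to miR-143-3p, a smooth muscle microRNA, and without them the family differed by -0.739 points (exact permutation test, p = 0.141). The arm ratio of miR-378a was 0.129 higher on the log2 scale in female hearts (exact permutation test, p = 0.349) and -0.0109 within sets (exact permutation test, p = 0.903).

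In male hearts miR-378b and miR-378c rose between 4 and 8 weeks. miR-378c had 17.9 and 15.5 CPM at 4 weeks, 29.0, 28.3 and 12.9 CPM at 5 weeks, 17.0 to 84.2 CPM at 6 weeks (median 36.3, n = 12), 32.2 CPM at 7 weeks and 60.0, 87.4, 119 and 105 CPM at 8 weeks. All 4 hearts of 8 weeks stood above all 5 of 4 and 5 weeks. The slope was 0.54 ± 0.09 log2 units per week (edgeR adjusted p = 8.25e-05). miR-378b had 4.53 and 8.26 CPM at 4 weeks, 6.33, 10.3 and 6.46 CPM at 5 weeks, 6.04 to 16.3 CPM at 6 weeks (median 13.7), 11.5 CPM at 7 weeks and 25.5, 13.8, 16.2 and 17.1 CPM at 8 weeks, again without overlap between 8 weeks and 4 to 5 weeks. Its slope was 0.29 ± 0.07 per week (edgeR adjusted p = 0.0031).

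The other members were not called. miR-378d had 47.9 CPM on average at 4 weeks (n = 2), 54.6 ± 8.83 at 5 weeks (n = 3), 83.8 ± 24.8 at 6 weeks (n = 12) and 84.1 ± 8.75 at 8 weeks (n = 4), with a slope of 0.12 ± 0.06 (edgeR adjusted p = 0.0883) and no overlap between 8 weeks and 4 to 5 weeks. miR-378a-3p had a slope of 0.08 ± 0.03 (edgeR adjusted p = 0.0789), miR-378a-5p of 0.07 ± 0.04 (adjusted p = 0.122) and the sum of all members, of which miR-378a-3p is nearly the whole, of 0.08 ± 0.03 (adjusted p = 0.0687). Thus 2 of 5 tested members were called, both rising, where 13.6% of the 346 arms tested were called rising and 35.0% in either direction. After TMM scaling, 3 of 5 members, miR-378b, miR-378c and miR-378d, had all hearts of 8 weeks above all of 4 and 5 weeks, as had 14.2% of all arms. miR-378a-3p overlapped there, with 40976 to 43195 TMM-scaled CPM at 8 weeks and 31254 to 42414 at 4 and 5 weeks, but not in CPM by file total, with 45870 to 53878 CPM at 8 weeks and 30842 to 40881 CPM at 4 and 5 weeks. On that scale 4 of 5 members did not overlap, as did not 22.5% of all arms.

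**Figure D4:**
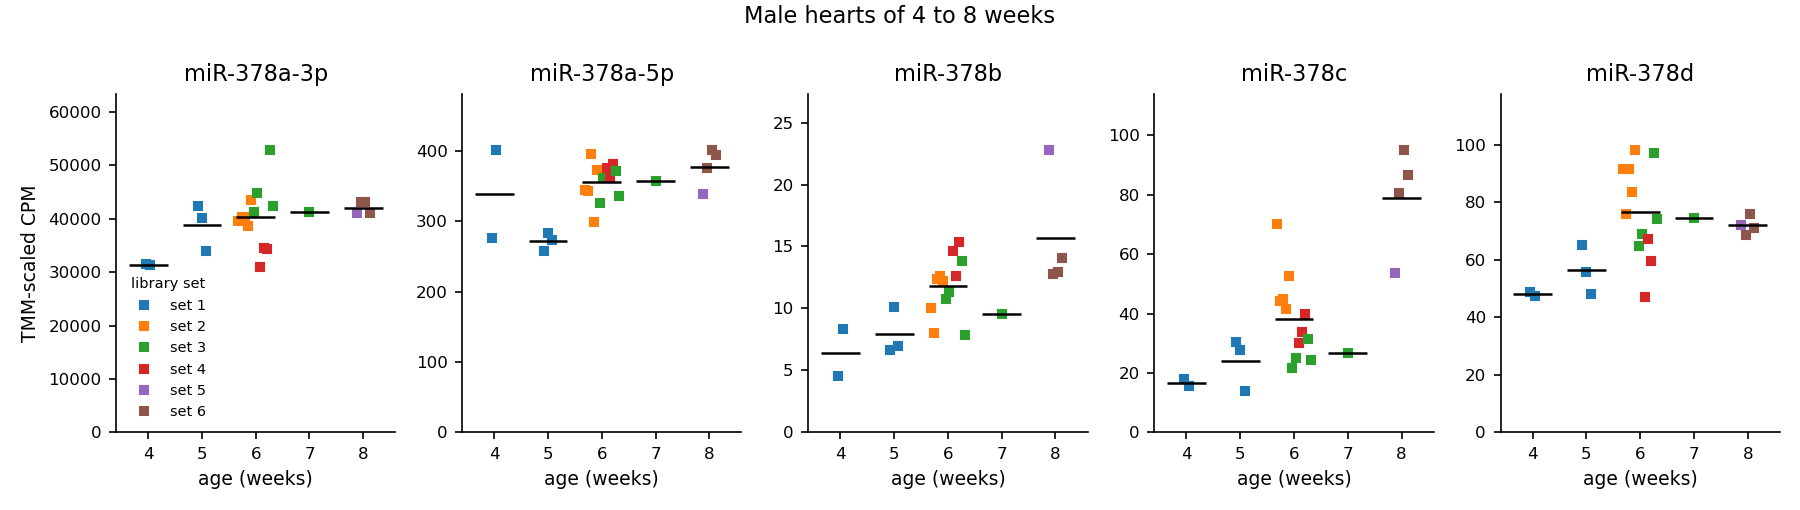
TMM-scaled CPM of the 5 tested members in male hearts of 4 to 8 weeks, 1 square per library coloured by library set, with the mean of each age (line). miR-378c lies between 53.6 and 95.1 at 8 weeks and between 13.9 and 30.4 at 4 and 5 weeks, and all hearts of 4 and 5 weeks belong to set 1, which holds no male heart of another age.

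Age and library set moved together in these males. All 5 hearts of 4 and 5 weeks were in set 1, the 4 hearts of 8 weeks in sets 5 and 6, and those of 6 and 7 weeks in sets 2, 3 and 4, so over most of the age range the effects of age and set cannot be told apart. With library set as a term the slope of miR-378c was 0.33 ± 0.20 (edgeR adjusted p = 0.607) and that of miR-378b 0.05 ± 0.21 (adjusted p = 0.960), and 0.0% of the 346 arms were called. Male age differed within a set only in set 1 (4 against 5 weeks) and set 3 (6 weeks against 1 heart of 7). The fit with the set term therefore cannot test the rise to 8 weeks. Within set 1, from 4 to 5 weeks, miR-378c had a slope of 0.54 ± 0.36 (edgeR adjusted p = 0.708) and miR-378a-3p of 0.32 ± 0.13 (adjusted p = 0.669), while miR-378b did not pass the filter. Between 6 and 8 weeks alone miR-378c rose by 0.53 ± 0.13 per week (edgeR adjusted p = 0.0148), and miR-378b had 0.21 ± 0.09 (adjusted p = 0.150). Marker lists differed between the ages too. From 4 over 5, 6 and 7 to 8 weeks, heart muscle markers averaged 84702, 91488, 96346, 105485 and 108721 CPM. Endothelial markers averaged 40568, 30360, 43387, 45402 and 49067 CPM, and white blood cell markers 2366, 2447, 3000, 2815 and 3282 CPM. Smooth muscle markers averaged 124869, 117565, 165997, 108849 and 91447 CPM. Their mean at 6 weeks was raised by replicates 2 and 6 (436697 and 431289 CPM). Their medians fell over the ages, with 124869, 121873, 116025, 108849 and 91889 CPM. Red blood cell markers averaged 132223, 126848, 90837, 73162 and 111434 CPM, and brown fat markers 103, 71.9, 90.9, 105 and 99.5 CPM. The means of the endothelial, white blood cell, red blood cell and brown fat lists did not run in 1 direction. The part of these lists in the slopes was not tested.

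**Figure D5:**
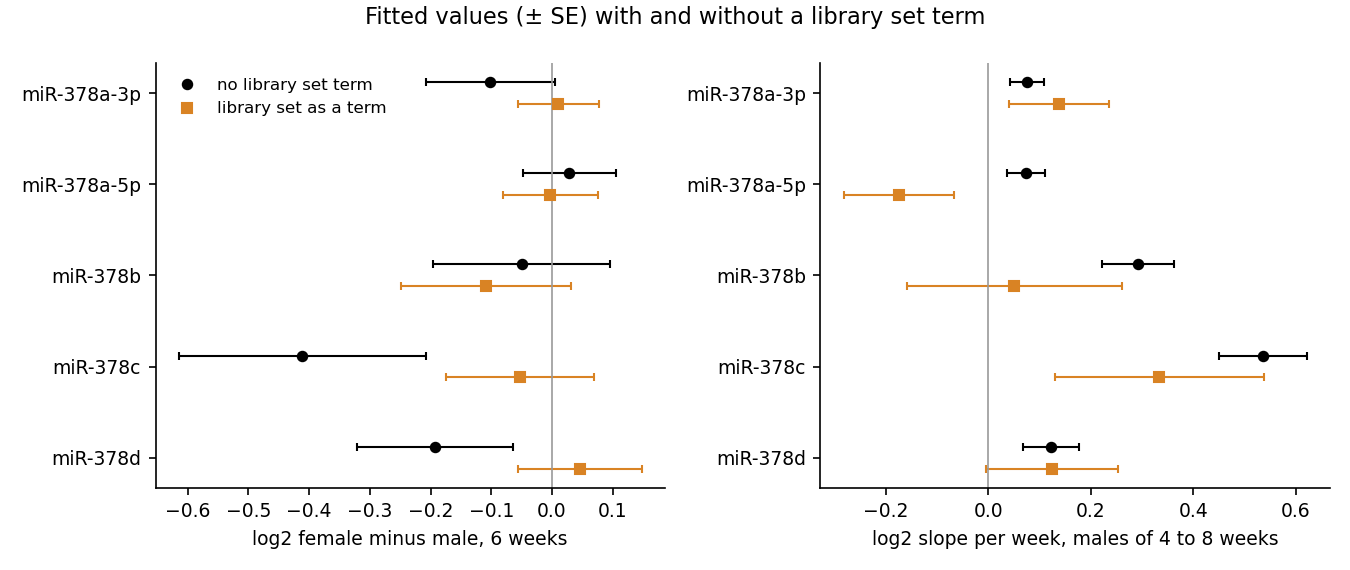
Fitted log2 differences at 6 weeks (female minus male, left) and log2 slopes per week in males of 4 to 8 weeks (right) for the 5 tested members, with SE bars, without (black circles) and with (orange squares) library set as a term. The miR-378c sex difference is -0.41 without and -0.05 with the term, and its male slope 0.54 without and 0.33 with it.

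The male slope was small beside the spread for the main product of the locus, and its call depended on the method. DESeq2 called miR-378a-3p with a slope of 0.08 ± 0.03 (adjusted p = 0.0359) and miR-378a-5p with 0.08 ± 0.04 (adjusted p = 0.0487), so that 4 of 5 members were called there, against 37.0% of all arms in either direction. edgeR called miR-378a-3p without replicate 2 of the male 5-week group (slope 0.09, adjusted p = 0.0457) and miR-378a-5p without replicate 2 of the male 4-week group (slope 0.13, adjusted p = 0.0127). miR-378b and miR-378c were called in each of the 22 fits that left out 1 library. With the male heart of 16 weeks in the fit, a single library far from the other ages, the slope of miR-378b was 0.08 per week (edgeR adjusted p = 0.280). In that fit 2 other members were called, where 65 of all 346 arms were called.

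In female hearts of 6 to 9 weeks no member was called. The slope of miR-378a-3p was -0.32 ± 0.38 log2 units per week (edgeR adjusted p = 0.744) and that of miR-378a-5p -0.37 ± 0.38 (adjusted p = 0.727), where 3.02% of 331 arms were called. Those wide errors came with replicate 2 of the 7-week group. Without it, miR-378a-3p had a slope of -0.0049 ± 0.046, miR-378a-5p of -0.09 ± 0.15 and miR-378c of 0.19 ± 0.10 (edgeR adjusted p = 0.291), and 2.11% of arms were called. All 5 hearts of 9 weeks formed set 7 by themselves, so that this age and its library set cannot be told apart, and without them the slope of miR-378a-3p from 6 to 8 weeks was 1.14 with the high library (edgeR adjusted p = 0.353) and 0.12 ± 0.10 without it (adjusted p = 0.435). In the fit without the hearts of 9 weeks and the high library, miR-378c was the 1 member called, with 0.61 ± 0.14 (edgeR adjusted p = 0.0388), where 4.63% of 324 arms were called. There miR-378c had 21.5 to 35.2 CPM in the 6 hearts of 6 weeks, 51.2 and 28.1 CPM in 2 of 7 weeks and 57.7 and 66.0 CPM in the 2 of 8 weeks, which were in sets 5 and 6. From 6 to 9 weeks, red blood cell markers averaged 87031 and 181365 CPM, and liver and epithelium markers 2135 and 2536 CPM. Heart muscle markers averaged 98882 and 75734 CPM, and endothelial markers 44642 and 37863 CPM. White blood cell markers averaged 2344 and 2044 CPM, and brown fat markers 97.0 and 65.9 CPM. Smooth muscle markers had medians of 134987 and 146623 CPM. The part of these lists in the female slopes was not tested.

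Female and male slopes from 6 to 8 weeks could not be separated. The difference, female minus male slope, was 1.11 ± 0.61 for miR-378a-3p (edgeR adjusted p = 0.264) and 1.06 ± 0.48 for miR-378a-5p (adjusted p = 0.185), where 2.02% of 346 arms were called and no member. Without the high library it was 0.09 ± 0.10 for miR-378a-3p and 0.46 ± 0.16 for miR-378a-5p (edgeR adjusted p = 0.0920). Without replicate 1 of the female 8-week group, 1 female library of 8 weeks remained, the one with the most red blood cell signal, beside the high library. In that fit the difference was 1.73 for miR-378a-3p and 1.58 for miR-378a-5p, and no call is drawn from a group of 1 library.

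Across libraries, the arms outside the family most like miR-378a-3p came from other chromosomes. Over 38 libraries, without the high one, the highest of 231 Spearman correlations of TMM-scaled CPM were 0.871 for miR-181b-5p of Mir181b-2, 0.862 for miR-181a-5p of Mir181a-2, its cluster neighbour on chromosome 2, 0.800 for miR-31-5p, 0.771 for miR-222-3p and 0.756 for miR-361-3p. miR-181a and miR-181b each have a second locus with the same mature sequence, so their row depends on how reads were shared. The lowest were -0.754 for miR-145a-3p, a smooth muscle microRNA, and -0.737 for miR-335-3p, but in CPM by file total these were -0.517 and -0.099. With the high library included, the 5 highest were 0.877, 0.818, 0.815, 0.787 and 0.767 in the order named, and the lowest -0.727 for miR-145a-3p and -0.729 for miR-335-3p. Taken as deviations from the mean of each library set, miR-181a-5p kept 0.807 and miR-181b-5p 0.589. Within the family the correlation with miR-378a-3p was 0.554 for miR-378d, 0.386 for miR-378c, 0.060 for miR-378a-5p and 0.050 for miR-378b, and as deviations from set means 0.623, 0.648, 0.164 and 0.104 in the same order. In CPM by file total, the correlation was 0.862 for miR-378d, 0.405 for miR-378c, 0.647 for miR-378a-5p and 0.550 for miR-378b, so that miR-378d was as alike there as miR-181a-5p (0.859) and miR-181b-5p (0.849), and the arm from the same hairpin less so on both scales. The choice of the 5 most alike depended on the scale, since 1 of them was still among the 5 most alike in CPM by file total and 1 in deviations from set means. All these values share library depth and composition and carry no test. Of the 5 most alike, miR-181b-5p (slope 0.17 ± 0.04, edgeR adjusted p = 0.0030), miR-222-3p (0.28 ± 0.07, adjusted p = 0.0030), miR-361-3p (0.26 ± 0.07, adjusted p = 0.0080) and miR-31-5p (0.19 ± 0.06, adjusted p = 0.0213) rose with age in males. miR-181a-5p was not called (0.04 ± 0.05). The 2 least alike fell, miR-145a-3p with a slope of -0.48 ± 0.13 (edgeR adjusted p = 0.0065) and miR-335-3p with -0.30 ± 0.10 (adjusted p = 0.0218). In that fit 13.6% of all 346 arms were called rising and 35.0% in either direction, and with library set as a term 0.0% were called.

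The family was set beside other microRNAs tied to mitochondria, energy use or PGC-1. Of a list of 24 such microRNAs, 57 rows were in the files and 44 were tested. In males, 7 rose and 3 fell with age, 22.7% of those tested against 35.0% of all arms, and their median slope was 0.03, against -0.0032 over all arms. The largest called changes among arms of at least 20 CPM were miR-16-5p of Mir16-1 (0.72 ± 0.09, edgeR adjusted p = 5.69e-06), a repressor of cell cycle genes, miR-30c-5p of Mir30c-1 (0.63 ± 0.08), miR-133a-1-3p (0.40 ± 0.07), which restrains muscle growth, miR-208b-3p of the slow myosin gene Myh7 (-0.39 ± 0.05) and miR-29a-3p, a repressor of collagens (0.36 ± 0.05). The first 3 of these are rows of paired loci, of which miR-16-5p and miR-30c-5p helped to define the library sets. The share of miR-133a-1-3p in the sum of both miR-133a loci also went with library set, with 5.95% to 7.63% in set 1 and 26.4% to 27.2% in set 5. At 6 weeks 0 of 44 arms differed between the sexes, with a median of -0.08 against -0.03 over all arms, and the 3 most abundant had log2 differences of 0.05 ± 0.07 (miR-133a-2-3p), 0.13 ± 0.08 (miR-181a-5p of Mir181a-1) and 0.22 ± 0.20 (miR-133a-1-3p). In females 1 arm fell with age, miR-208b-3p, by 0.40 ± 0.10 per week (edgeR adjusted p = 0.0366), and in the comparison of slopes between the sexes 1 was called, miR-208a-5p, with 0.61 ± 0.15 (adjusted p = 0.0239). Without the high library the same arms were the only ones of the list called, miR-208b-3p with -0.41 ± 0.09 (edgeR adjusted p = 0.0468) and miR-208a-5p with 0.66 ± 0.13 (adjusted p = 0.0076).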

How the data were processed

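Small RNA of 39 hearts was taken up in Trizol, and libraries were made from 1 µg of total RNA with the TruSeq small RNA kit and read on Illumina HiSeq instruments, per the labels. What was deposited were raw counts for each microRNA arm, all whole numbers; a count is a read, not a molecule, since no molecular identifiers were used. Genome build GRCm38 and the tools DESeq and edgeR are named in the submitters' processing notes without role or version; the aligner is not given in the sources used here. A row absent from a file was taken as 0. Names came from RefSeq coordinates (1134 of 1684 rows matched); miR-486a and miR-486b of the red blood cell list stand there as miR-486 and miR-3107. Members, lists and tests were chosen with earlier results of these data known, and the library sets were built from these data.

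The main test was edgeR 4.0.16 in R 4.3.3 (quasi-likelihood F-test, TMM factors, arms of 5 CPM or more in at least 5 fitted libraries, Benjamini-Hochberg adjustment over all arms, called under 0.05), checked on simulated data. DESeq2 1.42.0, other scalings, no filter, library sets, left-out libraries and a replicate block were alternatives. Named arms were the members, the 5 most and 2 least alike arms, the largest called arms of the energy list and the 2 most abundant of each marker list. CPM refers to the file total unless TMM-scaled. Wilson intervals (95%) and floors cover counting error only.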

Additional observations from a re-analysis of the deposited data

Results flagged for a closer look

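In the group of 6 female hearts of 6 weeks, replicate 6 had 49126 CPM of miR-378a-3p and 49671 CPM of the whole family, each far above the next highest of the group, with a gap to the nearest heart of 0.877 and 0.876 of the group's range. Over 30 combinations of group and value such a gap was found in these 2, which are nearly the same measurement; chance marks about 1 in 20. Replicate 2 of the female 7-week group, at 463583 CPM of miR-378a-3p against 46184 and 46590 CPM, was not among these 2 and is described above. The gap of replicate 6 of the female 6-week group was seen in CPM by file total. After TMM scaling, replicate 6 had 39048 CPM of miR-378a-3p, and replicate 1 was the highest of the group with 46806. Replicate 1 gave 43.6% of its counts to miR-143-3p. Rows on the strand opposite to miR-378a, which no comparison used, passed the 3 counts that a count of 0 allows in few libraries. Gm25301-5p held 19 counts in replicate 2 of the female 7-week group, where miR-378a-3p itself had 3350148 counts, and 4 counts in replicate 4 of the female 6-week group. Gm25301-3p held 4 counts in replicate 2 of the female 7-week group.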

How the results depend on the processing

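At 6 weeks no member was called under any setting run. With library set as a term the sex difference turned to 0.011 for miR-378a-3p, 0.046 for miR-378d, -0.0028 for miR-378a-5p and 0.013 for the family sum. Within set 4 it was 0.041 for miR-378a-3p, 0.15 for miR-378d and 0.041 for the family sum, within set 3 -0.064 for miR-378a-5p and 0.049 for miR-378c, and under total-count scaling -0.026 for miR-378a-5p. Leaving out 1 library gave -0.039 to 0.080 for miR-378a-5p and -0.15 to 0.014 for miR-378b. The arm ratio was -0.011 within sets. In the male slope, 4 members were called by DESeq2, 1 from 6 to 8 weeks, and 0 with the set term or within set 1. The count of all arms called was 121, against 38 from 6 to 8 weeks, 65 with the heart of 16 weeks, and 0 with the set term or within set 1. miR-378a-5p turned to -0.17 with the set term and -0.30 within set 1, and miR-378d to -0.014 from 6 to 8 weeks. The family sum was then called under total-count scaling (0.15), with DESeq2 size factors (0.089) and in DESeq2 (0.089), and ran from 0.064 to 0.092 with 1 library left out, called without replicate 7 or 11 of the male 6-week or replicate 1 of the male 8-week group. Total-count scaling moved the split of all called arms to 61 rising and 35 falling, against 47 rising and 74 falling, with a median slope over all arms of 0.070.

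In the female slope the 10 arms called became 48 in DESeq2, 2 with DESeq2 size factors, 1 with no filter, 0 with the set term, 16 without the hearts of 9 weeks, and 0 to 75 with 1 library left out. Without the hearts of 9 weeks the slope was 1.14 for miR-378a-3p, 1.11 for miR-378a-5p, 1.27 for miR-378b, 1.49 for miR-378c, 0.66 for miR-378d and 1.15 for the family sum. Without these hearts and the high library, a setting chosen after seeing the data, it was 0.12 for miR-378a-3p, 0.51 for miR-378a-5p, 0.22 for miR-378b, 0.61 for miR-378c, 0.038 for miR-378d and 0.13 for the family sum, and 1 member was called, against 0. Without the high library it was 0.058 for miR-378b and 0.19 for miR-378c. With 1 library left out miR-378b ran from -0.38 to 0.058 and miR-378c from -0.26 to 0.19. In sex by age the 7 arms called became 0 under total-count scaling, 25 in DESeq2, 1 with no filter, 94 with the set term, 11 without the high library and 1 to 89 with 1 library left out, and members called 0 to 2. The set term gave -0.0043 for miR-378b and -0.039 for miR-378d, and the family sum ran from 0.10 to 1.81 with 1 library left out. DESeq2 gave no adjusted p for the members in the female slope.

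Replicate numbers did not pair the samples (correlations of same-numbered libraries -0.374 to 0.326 between the sexes). With a replicate block, miR-378b differed by 0.033 between the sexes, miR-378c had a female slope of 0.0072, and 0 arms were called in the female slope and in sex by age.

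In TMM-scaled CPM, miR-378a-3p averaged 49208 in female hearts of 8 weeks, 37943 in those of 9 weeks, 41300 in the male heart of 7 weeks, 42088 at 8 weeks and 40209 at 16 weeks. Of the 5 arms most like miR-378a-3p, 1 remained among the 5 most alike in CPM by file total and 1 in deviations from set means. The cause of these changes was not tested. Depth limits miR-378b most, at 4.53 CPM in its lowest library.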
